A study of Mus musculus with 21 samples.

Results

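The 7 genes described here are Pck1, Pck2, G6pc, Fbp1, Pcx, Slc37a4 and Khk, whose enzymes and transporter make glucose, or bring fructose toward it, in the proximal tubule of the kidney. They were chosen by name, matched by symbol to the Entrez Gene numbers of the count tables, and are 7 of the 27179 genes listed there. Each of the 21 libraries came from the podocyte fraction of 1 male C57BL/6J wildtype mouse, sorted from a digest of kidney cortex by way of nephrin antibodies and magnetic beads. The 6 young mice were 4 months old and received no injections. The 7 middle-aged saline mice and the 8 middle-aged MCC950 mice were 19.5 months old and had received intraperitoneal saline or 10 mg/kg MCC950, a small-molecule inhibitor of the NLRP3 inflammasome, for 6 weeks from 18 months of age. The young group therefore differed from the saline group in age and in injection, which cannot be told apart.

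Gluconeogenesis is glycolysis run backward from lactate, glutamine or glycerol, with its own enzymes at the steps that glycolysis cannot reverse. Liver and kidney cortex are the tissues that release glucose in this way, and within the kidney the pathway belongs to the proximal tubule and not to the glomerulus. Pyruvate carboxylase (Pcx) makes oxaloacetate in mitochondria, and the phosphoenolpyruvate carboxykinases, cytosolic (Pck1) and mitochondrial (Pck2), turn it into phosphoenolpyruvate. Fructose-1,6-bisphosphatase (Fbp1) reverses the phosphofructokinase step. The transporter encoded by Slc37a4 carries glucose 6-phosphate into the endoplasmic reticulum, where the catalytic subunit encoded by G6pc releases glucose. Ketohexokinase (Khk) phosphorylates fructose, which can then enter the same pathway.

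All 7 genes were detected in every library and passed the filter on low counts, from a lowest raw count of 254, for Pck2. They lie on different chromosomes of GRCm38 (RefSeq, GRCm38.p6): Pck1 on chromosome 2 (173153073-173159274), Pck2 on 14 (55540263-55550020), G6pc on 11 (101367716-101377903), Fbp1 on 13 (62864753-62888298, minus strand), Pcx on 19 (4510472-4621752), Slc37a4 on 9 (44396946-44402966) and Khk on 5 (30921436-30931248), all but Fbp1 on the plus strand. The spans of Fbp1, Pcx and Slc37a4 overlap those of Gm38679, Lrfn4 and Mir7085, and Lrfn4 was counted separately, at 3.48% of the Pcx total. Whether strand was used in counting is not given in the sources used here, so reads from an overlapping antisense gene could not be told apart.

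The promoters of Pck1 and G6pc, which were higher after MCC950, and of Pck2, which was not, are shown because these genes sit at the entry and the exit of the pathway and followed different patterns across the libraries. Each is the 250 bases before the RefSeq start site of GRCm38.p6 on the plus strand, and capitals mark matches, on either strand, to the core letters of the cAMP response element (ACGTCA), an HNF1 half-site (GTTAAT), a FOXO core (GTAAACA), an insulin response core (CAAAACA), an HNF4 core (CAAAGNCCA) or a TATA box (TATAAA).
Pck1, chr2:173152823-173153072: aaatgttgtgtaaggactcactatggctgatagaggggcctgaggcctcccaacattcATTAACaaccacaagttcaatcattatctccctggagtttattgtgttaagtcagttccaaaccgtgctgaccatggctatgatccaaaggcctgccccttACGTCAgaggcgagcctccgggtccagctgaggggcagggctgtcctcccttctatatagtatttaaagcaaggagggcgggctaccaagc
G6pc, chr11:101367466-101367715: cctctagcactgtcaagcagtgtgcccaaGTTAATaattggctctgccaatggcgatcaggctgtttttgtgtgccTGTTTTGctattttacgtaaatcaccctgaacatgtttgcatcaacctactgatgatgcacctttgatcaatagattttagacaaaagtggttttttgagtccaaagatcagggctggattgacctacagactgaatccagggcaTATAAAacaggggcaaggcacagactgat
Pck2, chr14:55540016-55540265: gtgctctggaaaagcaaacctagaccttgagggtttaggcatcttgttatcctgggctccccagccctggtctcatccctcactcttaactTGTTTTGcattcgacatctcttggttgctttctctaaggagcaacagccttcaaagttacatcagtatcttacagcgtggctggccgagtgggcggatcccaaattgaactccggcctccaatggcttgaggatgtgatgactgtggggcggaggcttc
The Pck1 window held the cAMP response core from 91 to 86 bases before the start and an HNF1 half-site from 192 to 187 bases before it. The G6pc window held an HNF1 half-site, an insulin response core and a TATA box, the last from 29 to 24 bases before the start. In the Pck2 window the insulin response core was the only one of the 6 motifs found. Among the 10 windows listed for the 7 genes, the cAMP response core was also in Slc37a4 and the HNF1 half-site in Khk, while the FOXO and HNF4 cores were in none. Of all 32851 mouse promoter windows of this length, 6.47% held the cAMP response core, 6.43% the HNF1 half-site, 5.56% the insulin response core, 12.4% the TATA box, 3.17% the FOXO core and 1.70% the HNF4 core. These matches describe letters in the windows and do not show a site in use.

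Levels are given as CPM, a gene's counts scaled to a common library size after TMM normalization, with mitochondrial genes kept in the total. Between the genes, levels were compared only per kilobase of exon. Per kilobase, Fbp1 and Pck1 led in each group, with 74.2 ± 32.0 and 66.2 ± 22.2 CPM per kilobase (SD, n = 6) in young libraries. Their order was not settled by the spread, since Fbp1 was above Pck1 in 3 of 6 young, 7 of 7 saline and 6 of 8 MCC950 libraries. G6pc and Khk followed and could not be ordered either, with G6pc above Khk in 4 of 6 young libraries, Khk above G6pc in 4 of 7 saline libraries and G6pc above Khk in 4 of 8 MCC950 libraries. Pcx came next at 21.8 ± 9.92 CPM per kilobase in young libraries, above Slc37a4 in all 21 libraries. Pck2 was the lowest at 4.19 ± 0.702 CPM per kilobase in young libraries and was below Slc37a4 in all 21.

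**Figure D1:**
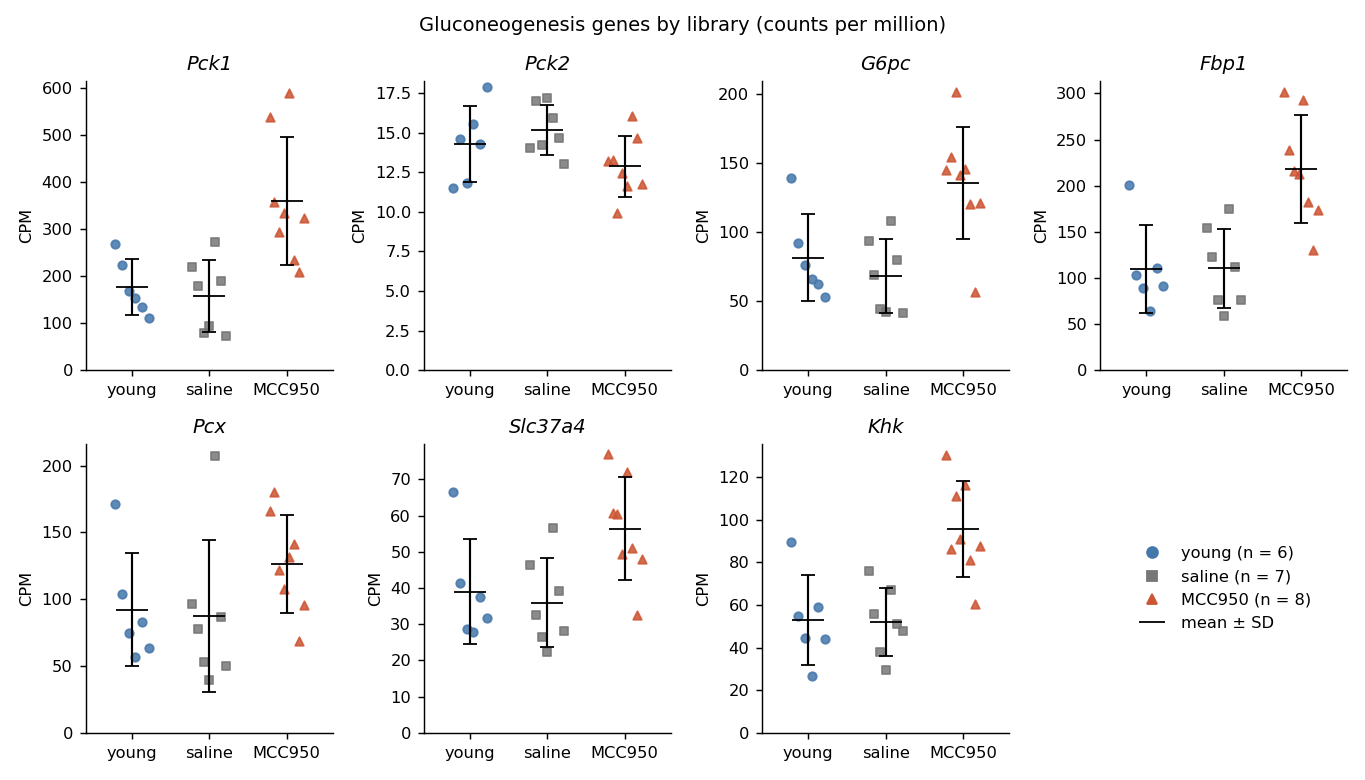
Level of each gene in each library, in CPM on linear axes that start at 0, for 6 young, 7 saline and 8 MCC950 libraries; bars give the mean and SD. MCC950 libraries sit higher for Pck1, G6pc, Fbp1, Slc37a4 and Khk, with some overlap in each gene, and Pck2 ranges from 9.90 to 17.9 CPM over all groups.

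The comparison of middle-aged saline with young libraries covers age and injection together. None of the 7 genes differed between saline and young libraries, and the estimates ran from a log2 fold change of -0.26 for G6pc to 0.09 for Pck2. By edgeR, 0 of 7 passed an adjusted p under 0.05 in either direction, where 12.2% of all 16377 genes tested were called higher and 12.4% lower. The count was also 0 before adjustment (p under 0.05), where no share over all genes is given, and DESeq2 and limma-voom called 0 as well. Over all 16377 genes, DESeq2 called 2119 higher and 2507 lower, and limma-voom 2408 and 2329. No gene of the 7 had groups that did not overlap, a pattern seen in 4.51% of all genes in the higher and 4.86% in the lower direction. The 95% confidence intervals still allowed sizeable changes: that of Pck1 ran from -0.80 to 0.48 on the log2 scale and that of Pck2, the narrowest, from -0.14 to 0.32. The median log2 fold change of the 7 was -0.08, against 0.02 for all genes tested.

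At the entry of the pathway, Pck1 ranged from 110 to 268 CPM in young libraries (median 160) and from 72.3 to 272 CPM in saline libraries (median 179). The saline libraries fell into a lower set of 3, at 72.3 to 94.6 CPM, and 4 others at 179 to 272 CPM. Pck2 ranged from 11.5 to 17.9 CPM in young libraries (median 14.4) and from 13.0 to 17.2 CPM in saline libraries (median 14.7). Its saline values thus lay within the young range. Pcx ranged from 56.9 to 172 CPM in young libraries (median 79.1) and from 39.9 to 208 CPM in saline libraries (median 77.5). For Pcx 1 library stood high in each group, young replicate 1 at 172 CPM and saline replicate 5 at 208 CPM, while the next were at 103.9 and 96.2 CPM.

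Further along the pathway, Fbp1 ranged from 63.8 to 201 CPM in young libraries (median 96.99) and from 59.3 to 174 CPM in saline libraries (median 111.8). G6pc ranged from 52.9 to 139 CPM in young libraries (median 71.1) and from 41.4 to 107.8 CPM in saline libraries (median 68.8). Slc37a4 ranged from 27.8 to 66.5 CPM in young libraries (median 34.7) and from 22.3 to 56.6 CPM in saline libraries (median 32.6). The groups overlapped for each of these genes, and young replicate 1 was the highest young library each time. Khk ranged from 26.8 to 89.7 CPM in young libraries (median 49.6) and from 29.7 to 75.8 CPM in saline libraries (median 51.1). Every saline value of Khk was inside the young range. Young replicate 1 also had the lowest Pck2 level of its group, 11.5 CPM.

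The comparison of MCC950 with saline libraries of the same age asks what NLRP3 inhibition changes. Pck1, G6pc, Fbp1, Khk and Slc37a4 rose with MCC950, by 2.28-fold, 1.99-fold, 1.97-fold, 1.83-fold and 1.57-fold, while Pcx and Pck2 did not pass the test. The 5 genes called higher of 7 and the 0 called lower stand against 11.9% and 4.86% of all genes tested by edgeR. Before adjustment, 5 had p-values under 0.05 in the higher direction and 1, Pck2, in the lower, with no share over all genes given at that threshold. DESeq2 called 5 higher and 0 lower, where it called 2200 and 1250 of all 16377 genes. With sample weights, limma-voom called 6 higher and 1 lower, against 3191 and 1932 of all 16377, so its 1 lower is near the share over all genes. In none of the 7 were the groups free of overlap, as they were in 1.15% of all genes in the higher and 0.586% in the lower direction. The median log2 fold change of the 7 was 0.87, against 0.00 for all genes tested. In bulk libraries such as these, more cells of a type and more RNA per cell cannot be told apart.

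Pck1 ranged from 208 to 588 CPM in MCC950 libraries, with a median of 328. Of the 8, 6 were above the highest saline library, and MCC950 replicates 1 and 5 stood out at 539 and 588 CPM. The log2 fold change was 1.19 (SE 0.29, 95% confidence interval 0.58 to 1.80, adjusted p = 0.0117). Pck2 ranged from 9.90 to 16.1 CPM in MCC950 libraries, with a median of 12.8. For this gene the shift was toward lower values, with 4 of 8 MCC950 libraries below the lowest saline library. Its log2 fold change of -0.24 (SE 0.10, 95% confidence interval -0.45 to -0.02) had an adjusted p of 0.12, and it passed the threshold without MCC950 replicate 6 (-0.29, adjusted p = 0.0484). Pcx, which feeds both carboxykinases, ranged from 68.97 to 181 CPM in MCC950 libraries (median 127), and 0 of the 8 exceeded saline replicate 5. Its log2 fold change was 0.54 (SE 0.31, 95% confidence interval -0.10 to 1.17, adjusted p = 0.238). Without saline replicate 5 it was 0.91 with an adjusted p of 0.0232, so the edgeR call turned on this library. It also turned on the method. With all libraries kept, 3 of 11 alternative fits called Pcx, among them limma-voom with sample weights (0.86, adjusted p = 0.0211).

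The ratio of the cytosolic to the mitochondrial carboxykinase was higher after MCC950. The log2 ratio of Pck1 to Pck2 counts was 3.58 ± 0.67 in young (SD, n = 6), 3.22 ± 0.74 in saline (n = 7) and 4.73 ± 0.64 in MCC950 libraries (n = 8). It ran from 2.46 to 4.09 in saline and from 3.83 to 5.66 in MCC950 libraries, where 6 of 8 were above the highest saline library. The difference between MCC950 and saline was 1.51 (exact two-sided permutation test, p = 0.00186, adjusted p = 0.00466 over 15 such tests), and leaving out any 1 library kept it between 1.38 and 1.66. MCC950 and young libraries also differed (exact permutation test, p = 0.00533, adjusted p = 0.0114), while saline and young did not pass (exact permutation test, p = 0.368). This ratio is a comparison within each library, so it does not depend on how the libraries were scaled. It does not set aside the level of proximal tubule markers, whose mean log2 CPM was 6.79 in saline and 7.55 in MCC950 libraries and which Pck1 followed over the libraries (Pearson r 0.73) and Pck2 did not (-0.46). With that marker level in the edgeR fit, neither gene was called between MCC950 and saline, at a log2 fold change of 0.56 for Pck1 and -0.09 for Pck2, and the ratio itself was not tested with it.

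Fbp1 ranged from 130 to 301 CPM in MCC950 libraries (median 215), with 6 of 8 above the highest saline library. Its log2 fold change was 0.98 (SE 0.25, 95% confidence interval 0.47 to 1.50, adjusted p = 0.0130). Fbp1 acts upstream of the glucose-releasing step, and the genes of that step moved as follows. G6pc ranged from 56.8 to 201 CPM in MCC950 libraries (median 143). All but 1 of these libraries were above the highest saline library, the exception being MCC950 replicate 7 at 56.8 CPM, below the saline median. The log2 fold change of G6pc was 0.99 (SE 0.26, 95% confidence interval 0.46 to 1.52, adjusted p = 0.0143). Slc37a4 ranged from 32.6 to 77.1 CPM in MCC950 libraries (median 55.7), with 4 of 8 above the highest saline library. Its log2 fold change of 0.65 (SE 0.22, 95% confidence interval 0.20 to 1.10, adjusted p = 0.0439) was the weakest of the calls. The adjusted p stayed under 0.05 in 9 of the 21 fits without 1 library and was lost, at up to 0.106, without young replicate 2 or 5, saline replicate 2, 3, 4, 6 or 7, or MCC950 replicate 1, 2, 3, 4 or 5.

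Khk, the fructose-phosphorylating enzyme, ranged from 60.3 to 130 CPM in MCC950 libraries (median 89.2), with 7 of 8 above the highest saline library. Its log2 fold change was 0.87 (SE 0.22, 95% confidence interval 0.41 to 1.33, adjusted p = 0.0130). MCC950 replicate 7 was the lowest MCC950 library for Pck1, G6pc, Fbp1, Pcx, Slc37a4 and Khk, and MCC950 replicate 1 the highest for Fbp1, Slc37a4 and Khk. The calls for Pck1, G6pc, Fbp1 and Khk held in all 21 fits that left out 1 library.

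**Figure D2:**
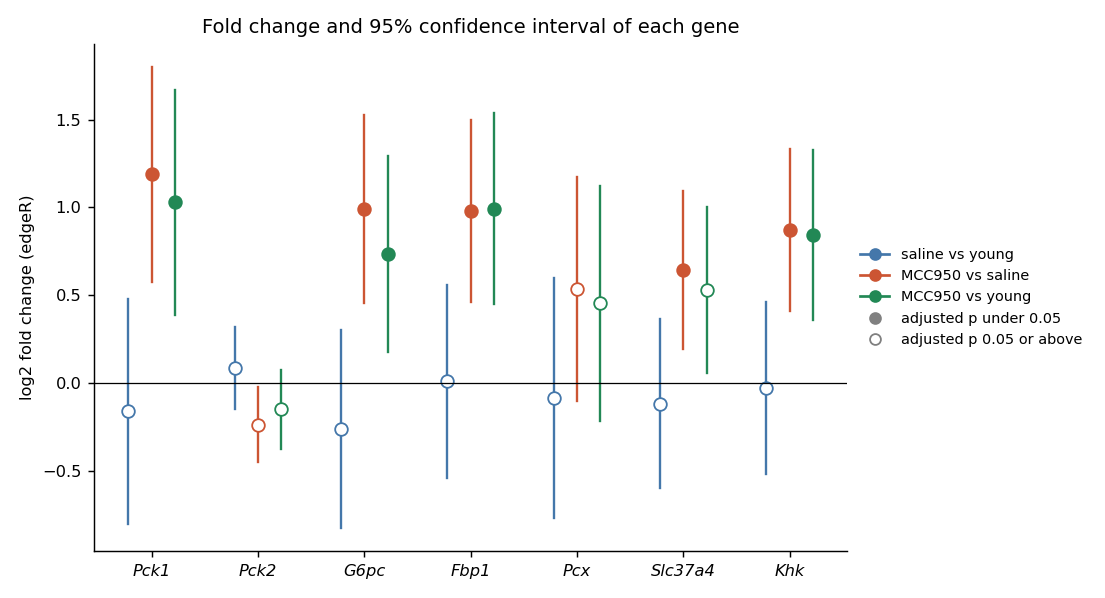
Log2 fold change of each gene in the 3 comparisons, with 95% confidence intervals; filled points have an adjusted p under 0.05 by edgeR. For saline vs young all 7 intervals span 0. For MCC950 vs saline 5 genes are filled and for MCC950 vs young 4, comparisons that share the MCC950 libraries.

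MCC950 libraries were also set beside young ones, a comparison that shares its libraries with the others and is not independent of them. Pck1 (log2 fold change 1.03, SE 0.31, adjusted p = 0.0123), Fbp1 (0.99, SE 0.26, adjusted p = 0.00553), Khk (0.85, SE 0.23, adjusted p = 0.00732) and G6pc (0.73, SE 0.27, adjusted p = 0.0356) were higher in MCC950 libraries. These 4 of 7, with 0 lower, stand against 21.8% of all genes called higher and 16.5% called lower by edgeR. At an unadjusted p under 0.05 the counts were 5 and 0, with no share over all genes given at that threshold. DESeq2 called 4 of the 7 higher and limma-voom 5, with 0 lower in each. Over all 16377 genes, DESeq2 called 3331 higher and 3262 lower, and limma-voom 3778 and 2818. Slc37a4 had a log2 fold change of 0.53 (adjusted p = 0.0689), Pcx 0.46 (adjusted p = 0.271) and Pck2 -0.15 (adjusted p = 0.296). The groups overlapped for every gene, where 3.28% of all genes were higher and 4.66% lower without overlap. G6pc lost its call in this comparison in 10 of the 21 fits without 1 library, those without young replicate 2, 3, 4, 5 or 6 or MCC950 replicate 1, 2, 3, 4 or 5 (adjusted p up to 0.0938). Slc37a4 gained one when young replicate 1 was left out (adjusted p = 0.00891) and when MCC950 replicate 7 was (adjusted p = 0.0321).

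Levels of cell type markers moved with the same comparison. Podocyte markers were present in every library, and so were those of the proximal tubule, with no marker of either list at 0 counts in any library. The summed level of 20 proximal tubule markers was 2607 to 10758 CPM in young, 2889 to 6693 CPM in saline and 3890 to 11640 CPM in MCC950 libraries, and that of 15 podocyte markers 914 to 1959, 371 to 672 and 483 to 787 CPM. With MCC950 against saline, 9 of the 20 proximal tubule markers were higher and 0 lower (median log2 fold change 0.74), among them the glucose transporter Slc5a2 (1.46) and the inositol oxygenase Miox (1.24). By segment, 3 of 4 early and 3 of 4 late markers were higher. Of the 15 podocyte markers 5 were higher and 1 lower. Over all genes tested, 11.9% were called higher and 4.86% lower between MCC950 and saline. Between saline and young libraries, 0 of 20 proximal tubule markers were called and 14 of 15 podocyte markers were lower. Over all genes, 12.2% were called higher and 12.4% lower in that comparison. The mean log2 CPM of the proximal tubule markers, used as a score, was 6.99 ± 0.60 in young (SD, n = 6), 6.79 ± 0.44 in saline (n = 7) and 7.55 ± 0.44 in MCC950 libraries (n = 8), and it differed between MCC950 and saline (exact two-sided permutation test, p = 0.0073, adjusted p = 0.0133).

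The other marker lists gave, with MCC950 against saline, 2 of 8 loop of Henle and distal tubule markers lower and 2 of 8 endothelial markers lower. None were called of 8 collecting duct, 8 mesangial and smooth muscle, 9 macrophage and myeloid and 8 B and plasma cell markers. Over all genes 11.9% were called higher and 4.86% lower, so the lists with none called are near the general share. Between saline and young libraries, 2, 7, 5 and 5 of the distal, endothelial, collecting duct and mesangial markers were lower, and 3 macrophage and 5 B cell markers were higher. Over all genes 12.2% were higher and 12.4% lower there, and the 2 of 8 distal markers are no result about that list. The share of counts from mitochondrial genes was 56.4% ± 4.46 in MCC950 (SD, n = 8) and 69.6% ± 5.32 in saline libraries (n = 7; exact two-sided permutation test, p = 0.000466). Library totals ran from 27375870 to 84876399 counts, with the lowest median in the young group. Outside the mitochondrial genes every young library held fewer counts than every middle-aged library, and the lowest held 5804891. With the mitochondrial genes left out of the fit 5 of the 7 genes were called higher with MCC950 against saline. After thinning every library to the same number of counts 4 were, Slc37a4 falling out (adjusted p = 0.0682). Over all genes, these 2 fits called 1947 of 16443 and 1193 of 14905 higher.

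Across the 21 libraries, as deviations from group means, Fbp1, Slc37a4 and Khk followed the proximal tubule score closely (Pearson r 0.95, 0.95 and 0.95), as did Pcx (0.87), G6pc (0.84) and Pck1 (0.73). Pck2 did not, with an r of -0.46. These are descriptions of libraries that share a normalization, and no p is given. Among themselves the 6 genes other than Pck2 had r from 0.70 (Pck1 and Khk) to 0.96 (Fbp1 and Slc37a4), and Pck2 had r from -0.46 to -0.17 with them. With the podocyte score, the same 6 had r from -0.60 for Fbp1 to -0.21 for G6pc, and Pck2 had an r of 0.01.

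**Figure D3:**
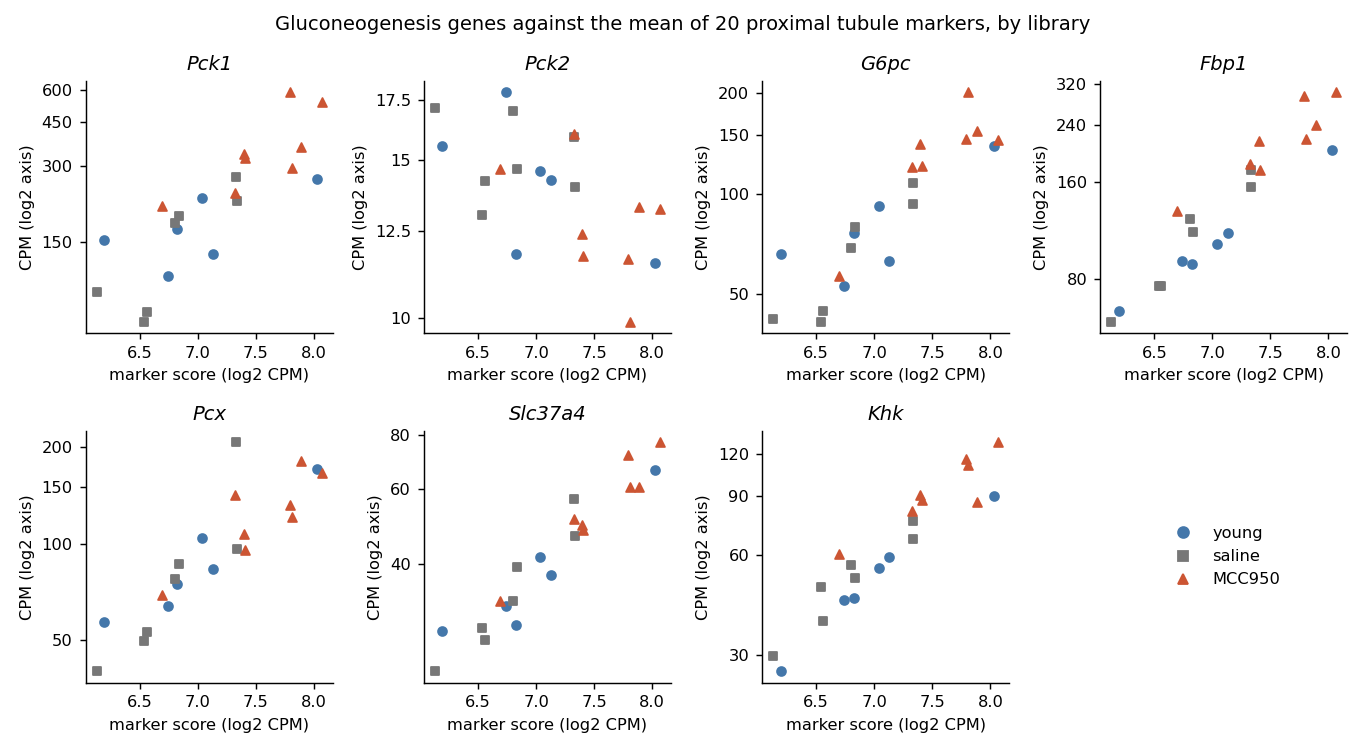
Level of each gene (CPM, log2 axis) against the mean log2 CPM of 20 proximal tubule markers, 1 point per library. As deviations from group means, Fbp1, Slc37a4 and Khk follow the score most closely. For Fbp1 and Khk the MCC950 libraries lie on average above the young ones relative to the score. Pck1 and G6pc scatter more widely, and Pck2 does not rise with the score.

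With the proximal tubule score as a covariate in the edgeR fit, 0 of the 7 genes were called between MCC950 and saline. The log2 fold change of Pck1 became 0.56 (adjusted p = 0.167), that of G6pc 0.33 (adjusted p = 0.263), that of Fbp1 0.28 (adjusted p = 0.0952) and that of Khk 0.23 (adjusted p = 0.156). Slc37a4 was at 0.02 (adjusted p = 0.931), Pcx at -0.20 (adjusted p = 0.549) and Pck2 at -0.09 (adjusted p = 0.658). Before adjustment, Pck1, Fbp1 and Khk had p-values under 0.05, all in the higher direction, and 0 in the lower. No share over all genes is given before adjustment, so this count is no result about the 7 genes. The same fit called 489 genes higher and 358 lower among all 16377, where the fit without the score called 1957 and 796. Calls were thus fewer over all genes. The 0 of 7 is near the share in that fit and says little about the 7 genes by itself. Against young libraries, where the fit with the score called 3753 genes higher and 2723 lower, Fbp1 (0.50, adjusted p = 0.000495) and Khk (0.42, adjusted p = 0.00123) remained called. Pck1 was at 0.50 (adjusted p = 0.105) and G6pc at 0.22 (adjusted p = 0.311).

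With the podocyte score as the covariate the calls for the 5 genes held between MCC950 and saline, with larger log2 fold changes than without it, at 1.52 for Pck1, 1.40 for Fbp1, 1.22 for Khk, 1.18 for G6pc and 0.98 for Slc37a4. Pcx was called as well, at 1.06 (adjusted p = 0.0227). Over all 16377 genes this fit called 2645 higher and 1274 lower between MCC950 and saline. The podocyte score of every young library (4.97 or above) exceeded that of every middle-aged library (4.82 or below), so this score and the age groups could not be told apart. With it, edgeR called only 60 of the 16377 genes higher and 120 lower between MCC950 and young, and 6 higher and 0 lower between saline and young. The 0 of 7 called in each of these comparisons therefore says little about the 7 genes. At an unadjusted p under 0.05, 5 of the 7 were lower between saline and young in this fit. No share over all genes is given at that threshold, so this count is no result about the 7 genes either.

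**Figure D4:**
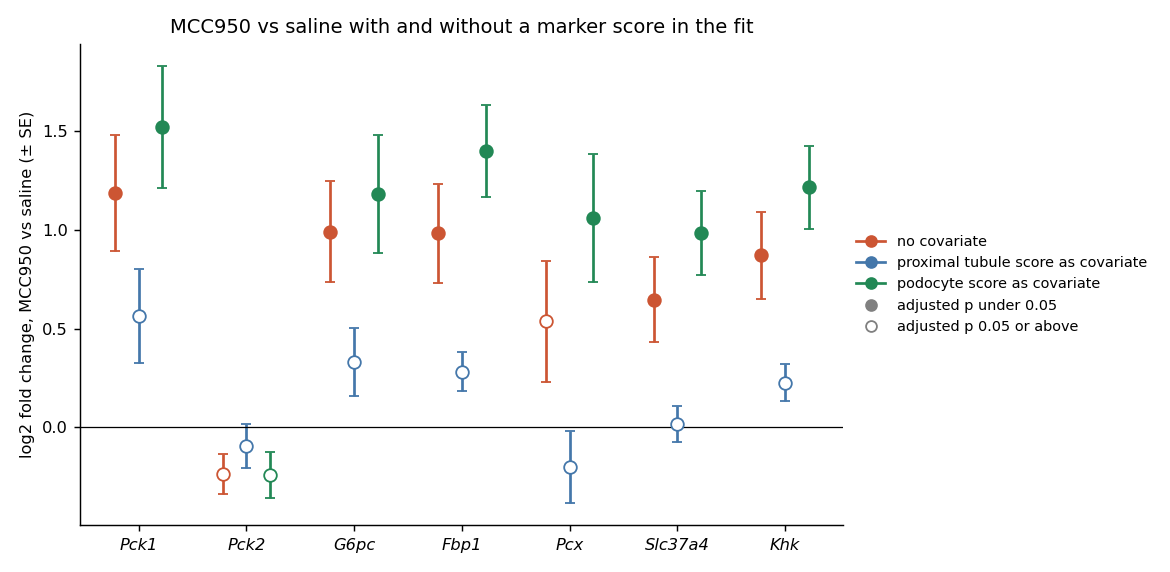
Log2 fold change of each gene between MCC950 and saline (± SE), without a covariate and with the proximal tubule or podocyte marker score in the fit; filled points have an adjusted p under 0.05. With the proximal tubule score the 7 values lie between -0.20 and 0.56 and 0 are filled, and with the podocyte score 6 are filled.

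Relative to the tubule score within each library, the mean log2 difference of Pck1 was 0.40 ± 0.47 in young (SD, n = 6), 0.35 ± 0.47 in saline (n = 7) and 0.86 ± 0.33 in MCC950 libraries (n = 8). Fbp1 was at -0.31 ± 0.08, -0.10 ± 0.18 and 0.18 ± 0.17 in the same order, and Khk at -1.36 ± 0.12, -1.14 ± 0.14 and -1.01 ± 0.20. G6pc was at -0.72 ± 0.38, -0.79 ± 0.24 and -0.53 ± 0.26. The group means of Slc37a4 lay within 1 SD of each other, at -1.77 ± 0.23, -1.69 ± 0.13 and -1.77 ± 0.12, as did those of Pcx at -0.57 ± 0.18, -0.55 ± 0.44 and -0.62 ± 0.23. Pck2 was at -3.17 ± 0.78, -2.87 ± 0.49 and -3.87 ± 0.57. These differences were not tested. As a share of the summed CPM per kilobase of the 7 genes, Pck1 was 27.3% in young, 24.8% in saline and 29.5% in MCC950 libraries, Fbp1 29.8%, 32.5% and 32.9%, and Pck2 1.91%, 2.21% and 0.919%.

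The rest of the pathway was read from lists of related genes, whose counts stand against the 11.9% of all genes called higher and 4.86% called lower between MCC950 and saline. Of 12 enzymes of the reversible steps shared with glycolysis, 7 were higher with MCC950 against saline and 0 lower (median log2 fold change 0.27). Among them were triose phosphate isomerase (Tpi1, 0.51), Gapdh (0.47) and phosphoglycerate kinase (Pgk1, 0.44). Gapdh, a common reference gene in PCR, was at 57.8 ± 7.98 CPM (SD, n = 8) in MCC950 and 41.8 ± 4.01 CPM (n = 7) in saline libraries. Of 13 tested genes of the irreversible glycolytic steps (hexokinases, phosphofructokinases, pyruvate kinases and their bisphosphatase regulators), 1 was higher and 0 lower (median -0.02). That gene was Pklr, the liver and kidney pyruvate kinase, at 0.95 (adjusted p = 0.0126), while the muscle-type Pkm was at 0.05 and the hexokinase Hk1 at -0.14, neither called.

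Of 21 tested genes that supply carbon from lactate, glutamine, glycerol and aspartate, 13 were higher and 0 lower (median 0.45). The largest were glycerol-3-phosphate dehydrogenase (Gpd1, 0.93), alanine aminotransferase (Gpt2, 0.87), glycerol kinase (Gk, 0.85) and the D-lactate dehydrogenase Ldhd (0.83). Of 6 genes of fructose and polyol handling, 4 were higher, among them Tkfc (0.97), Glyctk (0.94) and sorbitol dehydrogenase (Sord, 0.86), and 0 were lower. Of 4 tested relatives of the phosphatases and of the transporter, 0 were called, with the ubiquitous G6pc3 at 0.03 (adjusted p = 0.869) and the muscle-type Fbp2 at 0.87 (adjusted p = 0.0824). Among 18 regulators, 3 were higher and 0 lower (median 0.03), a share near that over all genes and so no result about the list. They were Hnf4a, a transcription factor of proximal tubule and liver (1.06, adjusted p = 0.003), the parathyroid hormone receptor Pth1r (0.67) and the estrogen-related receptor Esrra (0.42). Creb1 (-0.15), Foxo1 (-0.13) and Ppargc1a (-0.20) were not called.

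Between saline and young libraries, 12.2% of all genes were called higher and 12.4% lower. The lists of reversible steps (3 of 12 called) and regulators (4 of 18) were called about as often as genes in general. Eno3 (0.77) and Aldoc (0.49) were higher and Pgam2 (-0.46) lower among the reversible steps, and Pfkfb4 (0.68) was higher among the irreversible ones. In the supply list 2 genes were lower, among them Gk (-0.61), and in the fructose list 0 were called. Of the regulators Crtc2 (0.27) was higher, and Irs1 (-0.59), Creb1 (-0.27) and Foxo1 (-0.25) were lower.

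**Figure D5:**
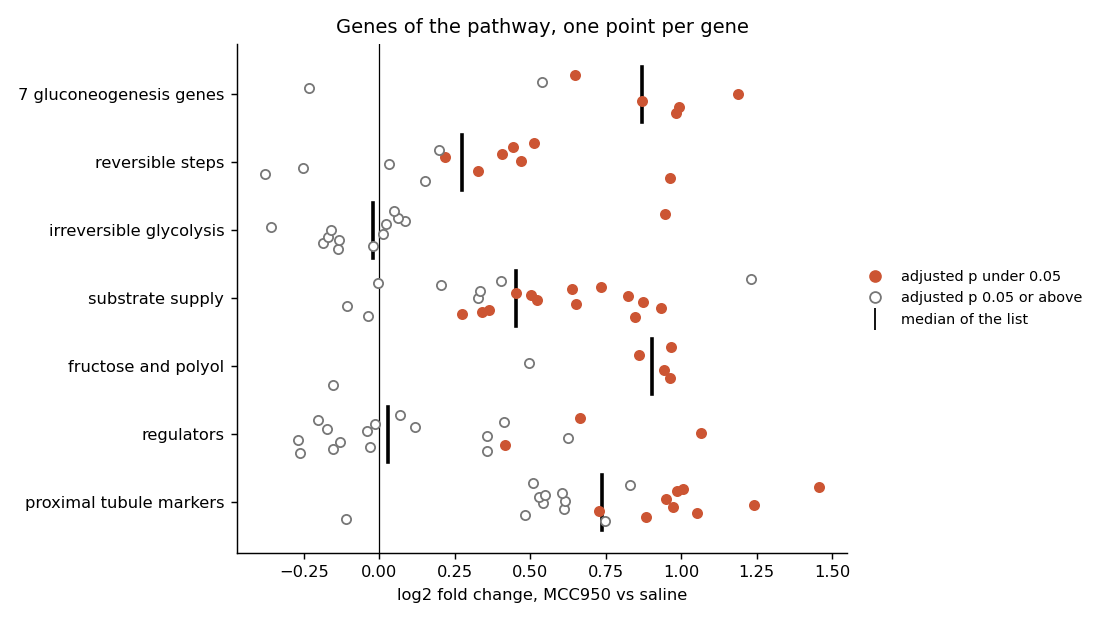
Log2 fold change of each tested gene between MCC950 and saline, 1 point per gene, for the 7 genes, 5 related lists and the proximal tubule markers; filled points have an adjusted p under 0.05 and bars mark the median. The medians are 0.87 for the 7 genes, 0.27 for the reversible steps, -0.02 for irreversible glycolysis and 0.74 for the proximal tubule markers.

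The genes whose levels followed the 7 most closely over the 21 libraries, as deviations from group means among 12263 genes, were named by rank. Nearest to Pck1 were Gnmt (Pearson r 0.90), Ppara (0.89), Pklr (0.89), Pxmp4 (0.88) and Tax1bp1 (0.88). Nearest to G6pc were Tcn2 (0.91), Ctsl (0.90), D630045J12Rik (0.90), Myl6b (0.90) and Cfb (0.90). Among the 5 nearest to Fbp1 were F13b (0.98), Abcg2 (0.98) and Hgd (0.98). Nearest to the mean of the 7 were Hoga1 (0.97), Aldh7a1 (0.97), Aass (0.97), Dgat2 (0.96) and Abcc2 (0.96).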

How the data were processed

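RNA from each podocyte fraction was sequenced after preparation with a TruSeq RNA kit. The authors trimmed reads with Trim Galore, aligned them to mm10 (GRCm38) with Bowtie2 and counted them per gene with featureCounts, and the deposited per-library tables hold raw read counts. The annotation release and strand setting are not given in the sources used here. A deposited normalized table was not used.

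Here edgeR 4.0.16 (R 4.3.3; TMM, filterByExpr by group, quasi-likelihood F test) was fitted to all 21 libraries and 16377 genes, with Benjamini-Hochberg adjustment over all of them and a threshold of 0.05. DESeq2 1.42.0, limma 3.58.1 (voom), other filters and scalings, marker scores (mean log2 CPM, prior count 2) as covariates, thinning to 5804891 counts, and leaving out each library were alternatives. Values per library were compared with exact two-sided permutation tests over every split of the libraries, with Benjamini-Hochberg adjustment in scipy 1.17.1. Genes and lists were chosen with earlier results of these data known. From each related list, up to 4 genes with the largest change among those called are named per comparison, together with others given for context after their values were seen, and all 7 genes throughout. The counts and medians of the lists cover a few genes whose own values are not reported here. Replicate numbers were not used to pair libraries in the main fit. The correlation of same-numbered deviations ran from -0.144 to 0.347, and whether same-numbered libraries share a batch was not tested. A fit with replicate number as a block was an alternative. No library duplicated another (lowest chi-square per degree of freedom 16.7). Each library is 1 mouse, and 21 libraries were used. The workflow was tested on simulated data. Exon lengths came from transcripts shared by GENCODE and RefSeq.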

Additional observations from a re-analysis of the deposited data

Results flagged for a closer look

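In MCC950 replicate 7, the log2 CPM of G6pc stood apart from the other 7 MCC950 libraries: its gap to the nearest of them was 0.591 of the range of the group, above Dixon's 95% critical value for 8 values. The library held 56.8 CPM of G6pc, where the other 7 held 120 to 201 CPM. It also had the lowest Pck1, Fbp1, Pcx, Slc37a4 and Khk levels of its group and the lowest proximal tubule score (6.69), and their part in the G6pc value was not tested. Of 24 groups of values looked at in this way 1 was flagged, and chance flags about 1 in 20. Without this library the call for G6pc between MCC950 and saline held.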

How the results depend on the processing

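Of the calls between MCC950 and saline, those for Pck1, G6pc, Fbp1 and Khk held under 10 of 11 alternatives, the exception being the proximal tubule score as a covariate. With that covariate the number of the 7 genes called higher was 0 against saline and 2 against young, where the podocyte score gave 0. Slc37a4 was called against saline under 8 of 11 alternatives and lost without a filter on low counts (adjusted p = 0.0516) and after thinning (adjusted p = 0.0682). With limma-voom weights the number called lower against saline was 1, where 1932 of all 16377 genes were. That number ran from 0 to 1 over the edgeR fits without 1 library. With the replicate block, 6 were called higher against saline, Pcx included (0.71, adjusted p = 0.0391), and 6 against young. Over all 16377 genes this fit called 2381 higher and 904 lower against saline, and 3857 and 2508 against young. The cause of these changes was not tested. The covariates change what is compared and do not test a cause.

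Estimates that changed sign were not called before or after. Between saline and young, Fbp1 was -0.0072 with DESeq2 size factors, -0.0071 with DESeq2 and -1.31 with the podocyte score. With the proximal tubule score Pcx was 0.088, Slc37a4 0.060 and Khk 0.19. Khk was 0.067 with the replicate block, 0.0079 after thinning and 0.014 with limma-voom weights. Without 1 library, Pck1 ran from -0.34 to 7.1e-05, Fbp1 from -0.13 to 0.27, Pcx from -0.46 to 0.19, Slc37a4 from -0.26 to 0.11, Khk from -0.18 to 0.19, and the proximal tubule score difference from -0.36 to 0.0046. In these 6 one end came without young replicate 1. With the proximal tubule score Pcx was -0.20 between MCC950 and saline and -0.11 between MCC950 and young, and with the podocyte score Pcx was -0.45 and Slc37a4 -0.22 between MCC950 and young. Depth outside the mitochondrial genes was lowest in the young libraries, but no count of the 7 genes was under 254 in any library.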
